A study of Mus musculus with 6 samples.

Results

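The respiratory chain and ATP synthase of mouse cells are built from subunits encoded in the nucleus and in the mitochondrial genome. Their genes were taken from the deposited table by symbol. A row was a member when its symbol began with Ndufa, Ndufb, Ndufc, Ndufs or Ndufv and a digit, with Uqcr, with Atp5, with Cox4 to Cox8 and a letter, or with mt-Nd, mt-Co, mt-Atp or mt-Cytb, or was Sdha, Sdhb, Sdhc, Sdhd or Cyc1. 1 row marked as a pseudogene (-ps) was dropped, so 101 of 21899 rows were members. Of these, 88 are nuclear genes and 13 are all the protein-coding genes of the mitochondrial genome. By complex, the nuclear and mitochondrial rows numbered 37 and 7 for complex I, 4 and 0 for complex II, 9 and 1 for complex III, 20 and 3 for complex IV, and 18 and 2 for complex V, the ATP synthase.

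The rows were compared between cells given 5-fluorouracil (5-FU) and cells given phosphate-buffered saline (PBS), with 3 libraries each. All 6 libraries came from C2C12, a clonal line of mouse myoblasts, labelled wild type. 5-FU, a uracil analogue that is incorporated into RNA and DNA and inhibits thymidylate synthase, was given at 5 µg per L for 24 hours, and the labels state no time for PBS. The cell line is C2C12 in every title, but the field for the line carries different final digits in 5-FU replicates 2 and 3; grouping rested on the titles. Nothing in the labels tells whether replicates came from separate cultures, and p-values therefore cover only the spread among these 6 libraries.

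Complexes I and II feed electrons from NADH and succinate to ubiquinone, complex III passes them to cytochrome c and complex IV to oxygen. Complexes I, III and IV pump protons, and ATP synthase uses the resulting gradient to make ATP, on which contracting muscle depends. The mitochondrial genes are transcribed as long RNAs from both strands and cut into single messengers, while the nuclear subunits are made in the cytosol and imported, with several subunits of complex IV existing in a common and a muscle form.

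The libraries held about 19583300 to 23016700 estimated counts. Over the whole table, 866 of 12135 genes tested passed an adjusted p of 0.05 (edgeR quasi-likelihood test, Benjamini-Hochberg over all genes tested), 470 higher and 396 lower with 5-FU. Higher genes made up 54.3% of these calls, 64.8% of the calls of limma on log2(TPM + 1), and 40.8% of the calls when trends with transcript length and GC content were removed from each library. All 5 myoblast markers (Myod1, Myf5, Des, Cdh15, Itga7) were detected. Their summed levels were 5022 to 5179 CPM (counts scaled by library size) in PBS and 5463 to 6116 in 5-FU. Only 1 of the 5 was called, Cdh15, which was higher with 5-FU (log2 fold change 0.21). The 8 markers of differentiated muscle, all detected, summed to 1177 to 1394 CPM in PBS and 1078 to 1845 in 5-FU, with Myh2 called lower. Myh2 was at low levels, with means of 1.77 CPM in PBS and 0.84 in 5-FU (log2 fold change -1.07). It stayed called in 2 of 6 cases with a library left out. The others were not called and ran from -0.53 for Myh1 to 0.40 for Mymk. The part of these markers in the results on the members was not tested. Summed markers of adipocytes, macrophages and endothelium stayed at or below 0.652 CPM, those of epithelium lay between 2.58 and 3.51 CPM, and Epcam, a defining epithelial gene, was at 0 in all 6 libraries. In bulk RNA, fewer cells expressing a gene and less RNA per cell cannot be told apart.

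The share of all counts that went to the respiratory chain overlapped between 5-FU and PBS for both genomes. Nuclear members took 1.03%, 1.08% and 1.11% of the counts of the PBS libraries and 1.09%, 1.03% and 1.04% of the 5-FU libraries. The 13 mitochondrial genes took 2.43%, 2.62% and 2.75% in PBS and 2.43%, 2.69% and 2.75% in 5-FU. The lowest mitochondrial share of each group was in replicate 1. Per 100 counts of nuclear members, the libraries held 235, 243 and 248 mitochondrial counts in PBS and 222, 260.3 and 265 in 5-FU. The 5-FU libraries thus held both the lowest ratio and the 2 highest, and the group means were 242 ± 6.69 and 249 ± 23.8 (SD, n = 3).

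**Figure D1:**
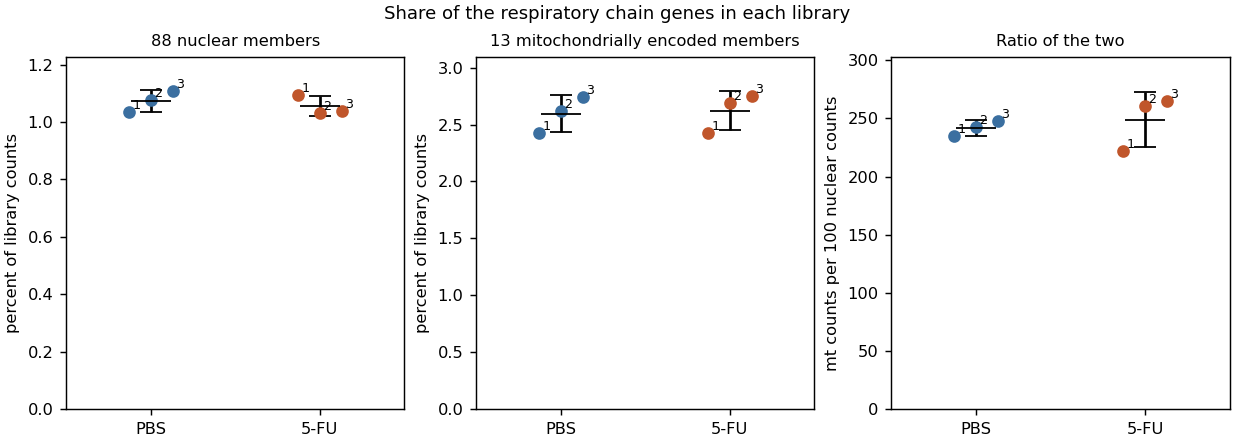
Share of the counts of each library taken by nuclear and by mitochondrially encoded respiratory chain genes (percent), and mitochondrial counts per 100 nuclear counts, with a numbered point for each of 3 PBS and 3 5-FU libraries and lines for the group mean ± SD. The groups overlap in every measure, and the ratio ranges from 235 to 248 in PBS and from 222 to 265 in 5-FU.

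Of the 101 members, 94 passed the filter on low counts and were tested. The 7 others were Ndufb11b, Cox4i2, Cox6b2, Cox7b2, Cox8c, Ndufa4l2 and a second Atp5o row with no count. With 5-FU, 5 of the 94 were called, all lower, against 7.14% of all genes called in either direction and 3.26% called lower. They were mt-Nd3, mt-Co3 and mt-Atp8 among 13 mitochondrial genes and Atp5k and Atp5md among 81 nuclear ones, and none was called higher, against 3.87% of all genes. At an unadjusted p of 0.05, 14 members passed, again all lower, against 23.8% of all genes in either direction and 11.1% lower. DESeq2 called the same 5 and no other. Without PBS replicate 2, edgeR called none of the members (8 at an unadjusted p of 0.05) and only 249 of 12222 genes in all. With trends of transcript length and GC content removed, 1 of the 5 was still called. It was mt-Nd3 with the lengths implied by the deposited values and Atp5md with annotated lengths.

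Most members that were not called had small negative fold changes. The log2 fold change was below 0 in 71 of 81 nuclear members, with a median of -0.06, and in 7 of 13 mitochondrial genes, with a median of -0.02. Over all genes tested, 49.7% were below 0 and the median was 0.0012. Outside the set, 83.0% of genes under 500 bases were below 0, 72.8% from 500 to 1000 bases and 47.8% from 1000 bases. For members of both genomes these shares were 92.9%, 86.5% and 71.4%. The libraries of the 2 groups did not overlap in 15 of the 94 members, all lower in 5-FU, against 29.3% of all genes in either direction and 14.2% lower. The nuclear members are short transcripts, with a median length of 715 bases against 2729.6 for tested genes outside the set, and the fold changes followed length across the whole table, as described with the length comparison.

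**Figure D2:**
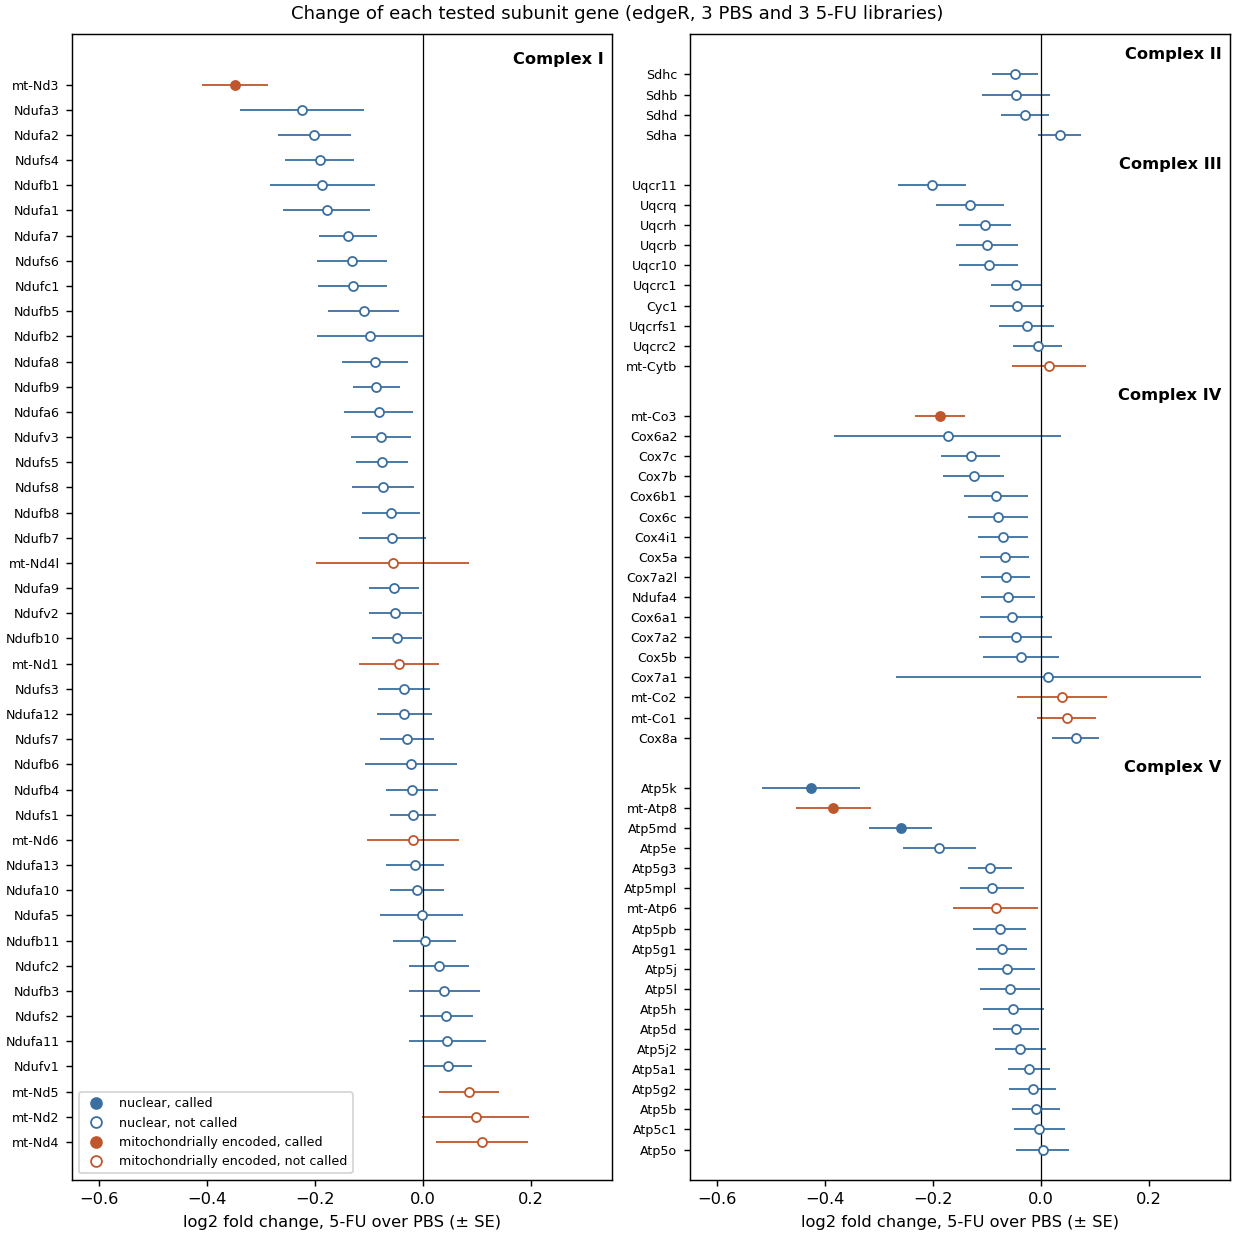
Log2 fold change (5-FU over PBS, edgeR) of 93 of the 94 tested members by complex, with bars for the standard error, blue for nuclear and orange for mitochondrially encoded genes, and filled points for called ones; Cox8b (-0.30), the least abundant tested member, is not drawn. The 5 called members lie between -0.43 and -0.19, and most nuclear subunits lie just below 0.

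The 6 most abundant members were mitochondrial genes, and the nuclear Atp5b, at 2115 TPM, lay above the other 7. The mean TPM of the 13 (a level scaled by transcript length and library total) ran from 347 for mt-Nd4l to 13818 for mt-Co1, with a median of 1698 against 191 for tested nuclear members. mt-Co1, the catalytic subunit of complex IV, alone took between 39.3% and 42.6% of the mitochondrial counts. The next levels were 8941 for mt-Co3 and 8686 for mt-Co2, the other core subunits of complex IV, which were close together. mt-Atp6 at 3919, mt-Nd1 at 3549 and mt-Cytb at 3490 TPM formed a further group of near levels, followed by mt-Nd3 at 1698 and mt-Nd5 at 1604. The order continued with mt-Nd4 at 1428, mt-Nd2 at 1307 and mt-Nd6 at 1031 TPM. The lowest were mt-Atp8 at 532 and mt-Nd4l, the shortest genes. These TPM values divide counts by full annotated lengths, and whether short length itself lowers them was not tested.

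The sequences of the 2 mitochondrial genes with the largest falls are shown because both are short and because mt-Atp8 shares bases with its neighbour. They are from GENCODE M21 (GRCm38) and were matched by symbol; the build behind the deposited values is not given in the sources used here. mt-Atp8 (ENSMUSG00000064356) lies at chrM:7766-7969 on the plus strand, a coding sequence of 204 bases. The last 43 bases, in capitals, also belong to mt-Atp6, so counts there cannot be assigned with certainty. mt-Nd3 (ENSMUSG00000064360), 348 bases long and on the plus strand, overlaps no other member, and its first 300 bases (chrM:9459-9758) are shown.
mt-Atp8: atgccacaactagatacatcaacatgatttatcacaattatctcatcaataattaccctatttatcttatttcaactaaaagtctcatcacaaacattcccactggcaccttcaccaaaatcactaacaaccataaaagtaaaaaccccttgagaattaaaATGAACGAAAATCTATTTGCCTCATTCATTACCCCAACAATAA
mt-Nd3: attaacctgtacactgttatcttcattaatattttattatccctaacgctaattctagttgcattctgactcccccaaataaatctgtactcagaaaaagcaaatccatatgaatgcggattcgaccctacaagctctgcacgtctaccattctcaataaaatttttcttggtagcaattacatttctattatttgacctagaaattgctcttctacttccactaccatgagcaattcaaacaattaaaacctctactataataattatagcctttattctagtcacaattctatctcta

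mt-Nd3, a membrane core subunit of complex I, fell by 21.5%. It stood at 329.9, 348 and 321 CPM in PBS and at 264, 237 and 284 CPM in 5-FU. Every 5-FU library was below every PBS library, and the log2 fold change was -0.35 (SE 0.06, edgeR adjusted p = 0.00789). mt-Nd3 was no longer called without PBS replicate 2 (adjusted p = 0.0511).

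mt-Atp8, a small membrane subunit of ATP synthase, was at 60.9, 67.4 and 57.3 CPM in PBS and 45.0, 46.5 and 50.8 CPM in 5-FU. The groups did not overlap, and its log2 fold change was -0.38 (SE 0.07, edgeR adjusted p = 0.00873; 0.0505 without PBS replicate 2). mt-Atp6, the proton channel subunit carried on the same RNA as mt-Atp8, had a log2 fold change of -0.08 (SE 0.08, edgeR adjusted p = 0.557), and its groups overlapped. The TPM values were 3919 for mt-Atp6 and 532 for mt-Atp8. They rest on division by the full annotated lengths of 681 and 204 bases, and counts in the 43 shared bases cannot be assigned with certainty. A difference in RNA level between these 2 genes therefore cannot be read from them.

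mt-Co3 (ENSMUSG00000064358), a core subunit of complex IV next to mt-Atp6 on the genome, was at 3524, 3891 and 3844 CPM in PBS and 3265, 3257 and 3376 CPM in 5-FU. Its groups did not overlap. The log2 fold change was -0.19 (SE 0.05, edgeR adjusted p = 0.0365), and when single libraries were left out it stayed called only without PBS replicate 1, in 1 of 6 cases. mt-Atp8, mt-Co3 and mt-Nd3, a set chosen after their values were seen, took 16.05%, 16.4% and 15.3% of the mitochondrial counts in PBS and 14.8%, 13.2% and 13.5% in 5-FU.

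The other 10 mitochondrial genes had overlapping groups and edgeR adjusted p-values of 0.379 to 0.922. The log2 fold changes were -0.04 for mt-Nd1, 0.10 for mt-Nd2, 0.11 for mt-Nd4, 0.09 for mt-Nd5 and -0.02 for mt-Nd6, subunits of complex I. They were 0.05 for mt-Co1 and 0.04 for mt-Co2 of complex IV and 0.02 for mt-Cytb, the heme-bearing core of complex III. mt-Nd4l, at -0.06, had the widest error of the 13 (SE 0.14). It shares 7 bases with mt-Nd4, mt-Atp6 shares 1 with mt-Co3, and mt-Nd5 shares 14 with mt-Nd6 on the opposite strand. The labels describe no step that marks the strand, so reads from mt-Nd6 and from its antisense cannot be told apart. Along the genome, mt-Atp8, mt-Atp6, mt-Co3 and mt-Nd3 are neighbours in that order, and 3 of these 4 were the only mitochondrial genes called.

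**Figure D3:**
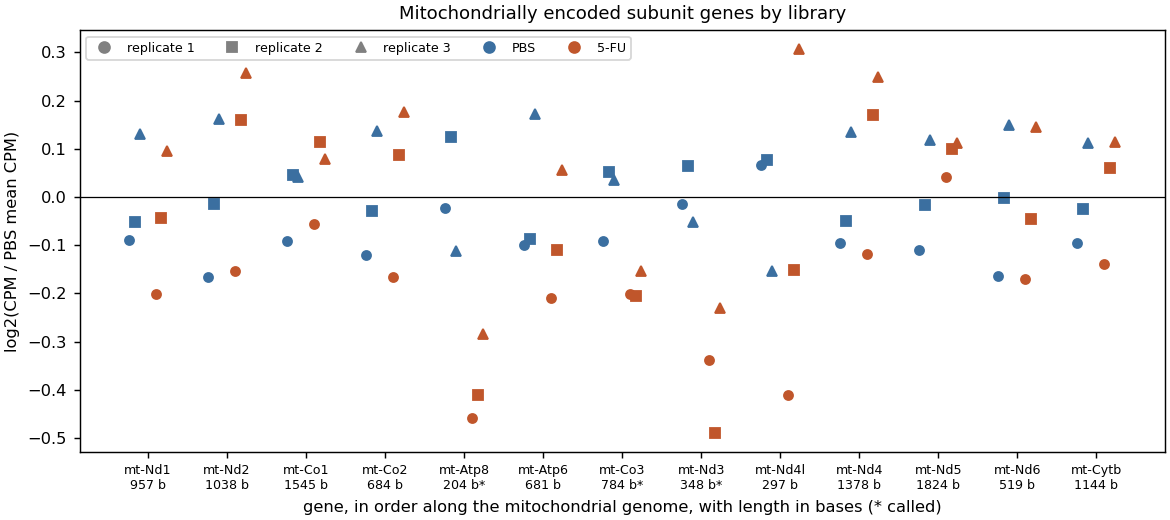
Level of each of the 13 mitochondrially encoded genes in each library, as log2 of its CPM over the PBS mean, in genome order; colour gives the group, symbol shape the replicate, and stars mark called genes. mt-Atp8, mt-Co3 and mt-Nd3 have groups that do not overlap, with 237 to 284 CPM for mt-Nd3 in 5-FU against 321 to 348 in PBS.

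The nuclear subunits of ATP synthase were the other place where calls were made. Of 18 rows, 17 were tested, and 16 had a log2 fold change below 0 (median -0.06), against 49.7% of all genes. After removal of trends with implied length and GC content, 9 of the 17 were below 0. Called lower were 2, against 3.26% of all genes. Atp5k (ENSMUSG00000050856) encodes subunit e, a membrane subunit involved in joining the enzyme into dimers. It was at 18.8, 16.8 and 15.5 CPM in PBS and 12.2, 12.4 and 13.5 CPM in 5-FU, with no overlap. The log2 fold change was -0.43 (SE 0.09, edgeR adjusted p = 0.0204), and it stayed called in 2 of 6 cases with a library left out, those without PBS replicate 3 and without 5-FU replicate 3.

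Atp5md (ENSMUSG00000071528), a small membrane subunit also associated with dimers and known as DAPIT, was at 57.2, 60.9 and 56.4 CPM in PBS and 51.1, 45.4 and 49.1 CPM in 5-FU. The groups did not overlap. The log2 fold change was -0.26 (SE 0.06, edgeR adjusted p = 0.0247), and it stayed called in 2 of 6 cases with a library left out, those without PBS replicate 3 and without 5-FU replicate 1. Atp5e, the small epsilon subunit of the rotor, named here after its value was seen, was at -0.19 (adjusted p = 0.117) and was called without 5-FU replicate 1. Atp5b, the catalytic beta subunit, was the most abundant nuclear member at 2115 TPM, with a log2 fold change of -0.0091, and Atp5k the lowest tested one of complex V at 79.6 TPM. Atp5g1, Atp5g2 and Atp5g3 encode the same mature ring subunit c and had mean levels of 354, 652 and 695 TPM; Atp5g3 had non-overlapping groups and a log2 fold change of -0.09 (adjusted p = 0.189).

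Of the 37 nuclear rows of complex I, 36 were tested and none was called by edgeR or DESeq2. 4 had an unadjusted p under 0.05, against 23.8% of all genes. Below 0 were 30, against 49.7% of all genes, with a median log2 fold change of -0.06. With trends of implied length and GC content removed, 14 of the 36 were below 0. The 7 core subunits, which carry the redox centres, had a median of -0.03 and the 29 tested accessory subunits one of -0.08. Their median lengths were 1170 and 682 bases. With those trends removed the medians were 0.013 and 0.014, and with annotated lengths 0.0049 and -0.010. The lowest p was that of Ndufs4, an accessory subunit required for assembly of the electron input module, with a log2 fold change of -0.19 (edgeR adjusted p = 0.0972). Ndufa2, another accessory subunit, followed at -0.20 (adjusted p = 0.0982) with groups that did not overlap. Non-overlapping groups were seen in 8 of the 36 genes, all lower in 5-FU, against 29.3% of all genes in either direction and 14.2% lower. Ndufa12 was the most abundant nuclear subunit at 412 TPM (log2 fold change -0.03) and Ndufa5 the least abundant at 37.0 TPM (log2 fold change -0.0025).

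Complex II, succinate dehydrogenase, is encoded by the nucleus alone, and none of its 4 genes was called. Sdha, the flavoprotein subunit, had the lowest level at 154 TPM and a log2 fold change of 0.03. Sdhd, a membrane anchor, had the highest at 197 TPM and a log2 fold change of -0.03, and the other anchor, Sdhc, was at -0.05. In complex III all 9 nuclear subunits had log2 fold changes below 0 (median -0.10), against 49.7% of all genes, and none was called. After removal of trends with implied length and GC content, 5 of the 9 were below 0. Uqcr11, a small membrane subunit, was at 64.3, 73.7 and 76.0 CPM in PBS and 63.6, 60.4 and 62.1 CPM in 5-FU. PBS replicate 1 was close to the 5-FU libraries, and the log2 fold change was -0.20 (edgeR adjusted p = 0.0775). Without PBS replicate 1, Uqcr11 was called. Uqcrh, the hinge subunit that binds cytochrome c1, had the highest level of complex III at 437 TPM, and Uqcrc2, a core subunit, the lowest at 142 TPM; their log2 fold changes were -0.10 and -0.0059.

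Complex IV had 15 of 20 nuclear rows tested and none called by edgeR or DESeq2. 13 were below 0, against 49.7% of all genes, with a median log2 fold change of -0.07. After removal of trends with implied length and GC content, 6 of the 15 were below 0. An unadjusted p under 0.05 was found for 2, against 23.8% of all genes. Cox7c, a small membrane subunit, had the lowest p, at a log2 fold change of -0.13 (edgeR adjusted p = 0.175), followed by Cox7b at -0.12 (adjusted p = 0.208). Cox8a, a small membrane subunit and the most abundant nuclear gene of complex IV at 823 TPM, had a log2 fold change of 0.06.

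The common forms of the complex IV subunits far exceeded the muscle, lung or testis forms in every library. Cox6a1 was at 624 to 707 TPM and the heart and muscle form Cox6a2 at 7.87 to 13.9 TPM, which was 1.18% to 2.02% of the pair. Cox7a2 was at 178 to 203 TPM and the muscle form Cox7a1 at 2.89 to 3.83 TPM, 1.43% to 2.09% of the pair. Cox8a was at 779 to 867 TPM and the muscle form Cox8b at 1.44 to 2.92 TPM, 0.172% to 0.373% of the pair. Cox4i1 was at 691 to 746 TPM, whereas Cox4i2, the form known from lung, had 1 count in all 6 libraries. Cox6b2, known from testis, had 13 counts in PBS and 3 in 5-FU against 315 to 352 TPM for Cox6b1. Cox7a2l, a related gene that serves supercomplex formation, had a log2 fold change of -0.06. Ndufa4, named for complex I but now counted as a complex IV subunit, was at 411 to 451 TPM and Ndufa4l2, a gene induced by hypoxia in other cells, had 10 counts in PBS and 6 in 5-FU. Cox7b2 had 2 counts in PBS and 0 in 5-FU, and Cox8c had none.

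**Figure D4:**
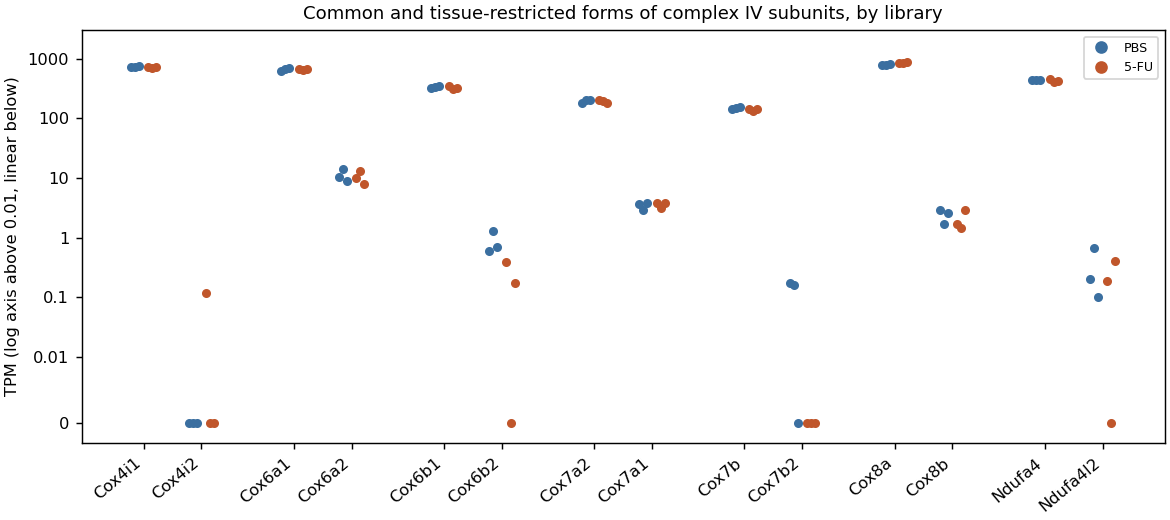
TPM of the common and the tissue-restricted form of respiratory chain subunits in each library (symlog axis, linear near 0), with PBS and 5-FU libraries as separate points. The common forms lie far above the restricted ones in all 6 libraries, with Cox8a at 779 to 867 TPM and Cox8b at 1.44 to 2.92 TPM.

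Promoters were searched for 5 motifs on both strands in 300 bases around each start (250 before and 50 after), from RefSeq (GRCm38.p6). The CCGGAAG motif of ETS factors, bound by GABPA, was in 23.6% of 72 promoters of 67 tested nuclear members and in 8.86% of all 32851 promoters. The NRF1 motif GCGCATGCG was in 11.1% against 1.75% (6.94% against 0.971% with a C added at its 3′ end, the form searched first), and the YY1 motif AAGATGGCG in 9.72% against 1.40%. The E-box CAGCTG, bound by MyoD, was in 8.33% against 16.3%, and TATAAA in 11.1% against 13.6%. Motifs were counted separately and may overlap. The 32851 promoters were not limited to tested genes, as those of the members were, and 67 of the 81 tested nuclear members were covered. These matches describe the letters in the windows only.
The promoters of both called nuclear genes and of the Cox8 pair are shown, motifs in capitals, all on the minus strand. Atp5k (chr5:108434350-108434649) holds an ETS motif and, at one place on both strands with overlapping letters, the NRF1 motif. Atp5md (chr19:47090598-47090897) holds an ETS motif and the letters TATAAA on the strand opposite to the gene. Cox8a (chr19:7217567-7217866) holds 2 ETS motifs, and Cox8b (chr7:140900397-140900696) 2 E-boxes and the letters TATAAA. Whether either TATAAA acts as a TATA box was not tested.
Atp5k: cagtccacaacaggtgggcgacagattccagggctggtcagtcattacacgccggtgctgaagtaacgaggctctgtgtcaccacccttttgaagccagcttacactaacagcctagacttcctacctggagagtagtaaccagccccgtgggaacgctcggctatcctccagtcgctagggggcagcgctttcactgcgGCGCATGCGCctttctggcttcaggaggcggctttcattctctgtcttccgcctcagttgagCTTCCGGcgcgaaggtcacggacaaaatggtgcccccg
Atp5md: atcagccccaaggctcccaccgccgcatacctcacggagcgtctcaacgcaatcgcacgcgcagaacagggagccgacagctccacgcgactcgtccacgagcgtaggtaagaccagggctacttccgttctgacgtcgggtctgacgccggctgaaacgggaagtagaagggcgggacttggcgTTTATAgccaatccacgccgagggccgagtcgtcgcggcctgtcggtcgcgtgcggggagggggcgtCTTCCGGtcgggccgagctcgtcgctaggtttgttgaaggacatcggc
Cox8a: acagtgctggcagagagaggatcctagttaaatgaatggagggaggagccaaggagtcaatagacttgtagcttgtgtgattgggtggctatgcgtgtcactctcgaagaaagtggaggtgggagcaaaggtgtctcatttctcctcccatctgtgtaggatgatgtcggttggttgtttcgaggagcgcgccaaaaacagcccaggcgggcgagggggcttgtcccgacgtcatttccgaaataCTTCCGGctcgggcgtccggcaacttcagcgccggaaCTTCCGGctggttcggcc
Cox8b: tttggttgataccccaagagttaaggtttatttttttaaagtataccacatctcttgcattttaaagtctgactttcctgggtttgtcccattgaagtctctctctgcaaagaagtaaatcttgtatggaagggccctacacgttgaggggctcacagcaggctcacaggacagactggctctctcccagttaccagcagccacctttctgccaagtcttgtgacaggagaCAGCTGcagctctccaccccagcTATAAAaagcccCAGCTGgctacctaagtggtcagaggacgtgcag

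Fold changes followed transcript length over the whole table. Tested genes outside the set had a median log2 fold change of -0.17 under 500 bases (47 genes, 7 called lower and none higher), -0.07 from 500 to 1000 bases and 0.0078 from 1000 bases. Members under 500 bases had a median of -0.19 (14 genes, 4 called lower), those from 500 to 1000 bases one of -0.06 and those of 1000 bases or more one of -0.02. The 4 called members under 500 bases were mt-Nd3, mt-Atp8, Atp5k and Atp5md. Under 400 bases, a thin group, 5 of the 8 genes outside the set were called lower. Spearman's rho of fold change with length, given as a description across genes that share the same 6 libraries, was 0.211 over all 12135 genes, 0.581 over 81 nuclear members and 0.797 over 13 mitochondrial genes.

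The length trend differed between libraries. Genes outside the set of under 500 bases had a median log2 deviation from their mean over libraries of 0.0020, 0.10 and 0.10 in the PBS libraries and -0.01, -0.15 and -0.04 in the 5-FU libraries. For these genes, PBS replicate 1 and 5-FU replicate 1 were close to 0, and 5-FU replicate 2 was the lowest. The 14 members under 500 bases were at 0.088, 0.119 and 0.085 in PBS and -0.081, -0.137 and -0.063 in 5-FU. In the replicate 1 libraries these members thus lay further from 0 than the genes outside the set. The sets differ in length, with medians of 382 bases for members and 471 for the others. Under 400 bases, the 8 genes outside the set were at 0.068 in PBS replicate 1 and -0.060 in 5-FU replicate 1. The 8 members of that length were at 0.137 and -0.212. From 400 to 500 bases the values were -0.017 and -0.010 outside the set and 0.027 and -0.068 for members. The lengths used here were those implied by the deposited counts and TPM values. For the mitochondrial genes they were the full annotated lengths, to within 0.000105%.

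When smooth trends of each library with these lengths and with GC content were removed in the edgeR fit, an alternative chosen after seeing the data, 1 member was called lower and 1 higher, against 5.93% and 4.08% of all genes. mt-Nd3 stayed lower, at a log2 fold change of -0.36 (edgeR adjusted p = 0.0480). Cox8a was called higher, at 0.16 (adjusted p = 0.0205). mt-Atp8 was at -0.34 (adjusted p = 0.0731), mt-Co3 at -0.13 (adjusted p = 0.101), Atp5k at -0.25 (adjusted p = 0.123) and Atp5md at -0.04 (adjusted p = 0.760). The median log2 fold change became 0.01 for nuclear members and 0.01 for mitochondrial genes, and 42 of 94 members were below 0. With annotated lengths in place of implied ones, Atp5md was called lower (edgeR adjusted p = 0.04997) and Cox8a higher, against 5.83% and 4.18% of all genes, and mt-Nd3 was not called (adjusted p = 0.0683).

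**Figure D5:**
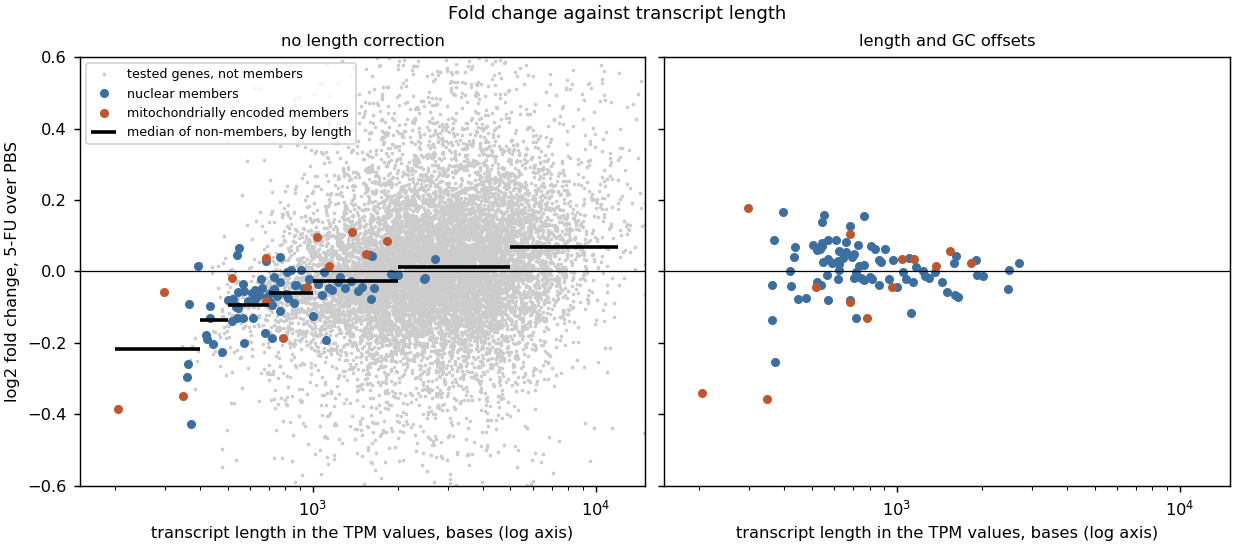
Log2 fold change (5-FU over PBS, edgeR) against transcript length in bases (log axis) for tested genes outside the set and for the members, with the vertical axis limited to 0.6 on either side of 0. The left panel has no length correction, with black lines for medians of genes outside the set by length, and the right panel shows the members after length and GC trends were removed. At left, short genes lie mostly below 0 inside and outside the set, with medians of -0.19 and -0.17 under 500 bases.

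Genes that assemble, supply or regulate the respiratory chain were read from the same fit, in lists of 132 symbols of which 127 matched and 121 were tested. None was called higher and 1 was called lower, against 7.14% of all genes in either direction. An unadjusted p under 0.05 was found for 20 of the 121, against 23.8% of all genes. The called gene was Tbrg4, also named Fastkd4, which in human cells is known to sustain the levels of a subset of mitochondrial messengers. Tbrg4 was at 44.4, 44.8 and 48.9 CPM in PBS and 37.9, 33.3 and 37.3 CPM in 5-FU. The groups did not overlap, and the log2 fold change was -0.35 (SE 0.07, edgeR adjusted p = 0.0112). It was called in 6 of 6 cases with a library left out and with the length and GC trends removed (adjusted p = 0.00198).

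No assembly factor of any complex was called: 0 of 17 for complex I, 0 of 10 for complexes II and III, 0 of 23 for complex IV and 0 of 5 for ATP synthase. The lowest p in these lists was that of Ndufaf8 for complex I (log2 fold change -0.36, edgeR adjusted p = 0.0860), Uqcc1 for complexes II and III (-0.09, 0.401), Cox17, a copper carrier for complex IV (-0.22, 0.0645), and Tmem70 for ATP synthase (-0.05, 0.685). Of 21 electron carriers and nucleotide exchangers none was called, with Slc25a4, the muscle ADP/ATP carrier, at -0.11, Slc25a5 at 0.0021 and cytochrome c (Cycs) at 0.01.

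Of 17 genes for mitochondrial DNA copying and transcription none was called. Ssbp1, which binds single-stranded mitochondrial DNA, was at -0.22 (edgeR adjusted p = 0.140), Tfam, which packages the genome and starts its transcription, at -0.13 (adjusted p = 0.172) and the RNA polymerase Polrmt at 0.10 (adjusted p = 0.268). Lrpprc, which stabilises mitochondrial messengers, was at -0.04. Among 11 nuclear regulators none was called. Ppargc1b, a coactivator of respiratory genes, had the lowest p, with 3.49 ± 0.535 CPM in PBS and 5.20 ± 0.516 CPM in 5-FU (SD, n = 3; log2 fold change 0.57, edgeR adjusted p = 0.0504). Nrf1 was at -0.14, Gabpa at -0.15 and Esrra at 0.09, none of them past the threshold.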

How the data were processed

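mRNA was sequenced from 3 PBS and 3 5-FU libraries of C2C12 cells. Per the file headers, each gene and library has an estimated count and a TPM value in the deposited table; the TPM values were scaled by the authors. The authors' deposited table of 186 genes gives a log2 ratio and a p-value per gene, and it holds 0 of the members. The submitters' processing notes list StringTie 1.3.1. Which aligner, counter, build and annotation were used is not given in the sources used here.

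Counts had been assumed; the estimated counts deposited were rounded. R 4.3.3 and edgeR 4.0.16 were used: filterByExpr (at least 10 counts in 3 libraries, 15 in total), TMM factors, a two-sided quasi-likelihood F test and Benjamini-Hochberg adjustment over all genes tested, with calls at an adjusted p under 0.05. The standard error is the log2 fold change divided by the square root of F. The step was tested on simulated data without trends of length or GC content, so that test does not cover such trends. Of the members, 9 have values that are not whole (tolerance 0.005), as when reads are divided between genes.

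Alternatives were DESeq2 1.42.0, limma 3.58.1 (voom, and log2(TPM + 1) at a minimum mean of 1 TPM), upper-quartile or RLE factors, plain library sizes, no filter, a minimum mean of 5 CPM, an adjusted p of 0.1, offsets for annotated length and GC (GENCODE M21), a replicate block, and each library left out in turn. Named genes were every called member, all mitochondrial genes, per complex the 2 nuclear members of lowest p and those of highest and lowest TPM, the isoform pairs, the 5 highest and 5 lowest fold changes, and called or lowest-p genes and 9 fixed genes of the other lists. The members and lists were chosen with earlier results of these data known.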

Additional observations from a re-analysis of the deposited data

How the results depend on the processing

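The 5 calls were the same under upper-quartile or RLE factors, plain library sizes, DESeq2, limma-voom, no filter, a mean of at least 5 CPM and the replicate block, and 4 of them were made on log2 TPM. At an adjusted p of 0.1 there were 8 members called, 5 of them nuclear, 5 list genes and 1605 genes in all; on log2 TPM, 528 genes in all. Annotated length and GC offsets gave 2 members, 0 of them mitochondrial, and a nuclear median of 0.0043; implied lengths, an alternative chosen after seeing the data, gave 2 members, 1 nuclear and 1 mitochondrial, and a nuclear median of 0.013. Leaving out a library gave 0 to 4 members (0 without PBS replicate 2, with 8 at an unadjusted p under 0.05), 0 to 2 nuclear and 0 to 3 mitochondrial. It gave 1 to 2 list genes and 249 to 656 genes in all, the lowest number without PBS replicate 2. Alternatives for the list genes were also chosen after seeing the data; library size alone gave 2, no filter 2 and the replicate block 4. The labels do not say that a number marks a shared culture or day, so the numbers were not taken as pairs. Deviations of same-numbered libraries correlated at r = -0.0016, 0.087 and 0.132, and those of differently numbered ones at -0.133 to 0.044. These values do not settle whether the libraries are paired. The block called 1199 genes, against 866 without it.

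Of 78 members below 0, 32 turned positive with annotated and 36 with implied length offsets, 29 with both. Among the genes named in the report, those that turned and moved by more than their standard error under both were mt-Nd4l (0.20, 0.18), Uqcrh (0.039, 0.026), Cox6a1 (0.045, 0.034), Cox6b1 (0.040, 0.028), Cox7a2 (0.066, 0.054), Ndufa4 (0.10, 0.088) and Atp5g2 (0.077, 0.073). Ndufa12 (0.088, and 0.012 with annotated lengths) and Atp5g1 (0.040) did so with implied lengths, Atp5g3 (0.0073) with annotated ones, and Sdhc (0.0039) and Uqcc1 (0.16) on log2 TPM. The cause was not tested. With a library left out, mt-Nd4l ranged from -0.28 to 0.10, mt-Atp6 from -0.16 to 0.0090 and Ndufa12 from -0.077 to 0.017.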

Other observations

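The mitochondrially encoded genes varied more between libraries of a group than the nuclear ones. The median coefficient of variation of CPM was 8.31% in PBS and 9.35% in 5-FU over 13 mitochondrial genes, and 4.23% in PBS and 4.23% in 5-FU over 81 nuclear members. Summed over complex IV, the mitochondrial genes reached 29126 to 33038 TPM in a library and the nuclear ones 4754 to 5047 TPM. In complex V the order of the sums was the other way round, with 3949 to 4945 TPM from the 2 mitochondrial genes and 8517 to 8797 TPM from the 18 nuclear rows. These sums cover unlike numbers of genes. The median per tested gene of complex V was 2226 TPM for the mitochondrial and 460 TPM for the nuclear ones.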
